A study of Mus musculus with 7 samples.

Results

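The nuclear-encoded genes of oxidative phosphorylation were taken from the deposited table by symbol alone, as rows with a single symbol that starts with Nduf, Cox4 to Cox8, Atp5 or Uqcr, or that is Sdha, Sdhb, Sdhc or Sdhd. The rule found 92 of 23358 gene entries. All 92 lie at a protein-coding gene of the same name or synonym in GENCODE M21, spread over 19 chromosomes. They comprise 83 genes named for subunits of complexes I to V, 7 assembly factors of complex I (Ndufaf1 to Ndufaf7) and 2 genes, Atp5s and Atp5sl, that carry the Atp5 name without being subunits of the ATP synthase.

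The study compared RNA of cells sorted from brains of C57Bl6 mouse embryos at E14.5 in 7 libraries, 3 labelled controls and 4 labelled as lacking Tgfbr2, the type II receptor for transforming growth factor β. Cells of both groups were selected by the fluorescence of TdTomato, which the Ai14 allele yields once Cre has recombined it, and each library was made from 2000 to 5000 cells. The sources used here do not name the Cre driver, the deleted part of Tgfbr2 or the number of embryos behind a library. Values are FPKM, fragment counts scaled to transcript length and to library size, the latter by a method that the sources used here do not name. The table holds 1 FPKM value per gene and group that combines the libraries, so the value of each library, its depth and the spread between libraries are unknown here. The error measure is the q-value of each gene in the authors' deposited table, and a gene was called higher or lower at q under 0.05 if it reached 1 FPKM in at least 1 group. The labels do not say that each library is a separate animal, so a q-value cannot be read as a measure against the spread between animals. The test settings are not named, so what else enters a q-value is unknown here.

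Oxidative phosphorylation is the last stage of respiration in the inner mitochondrial membrane. Complex I takes electrons from NADH and complex II from succinate, and both pass them through ubiquinone to complex III, cytochrome c and complex IV, where oxygen is reduced. Complexes I, III and IV pump protons, and complex V, the ATP synthase, lets them flow back to make ATP. Most subunits are encoded in the nucleus and imported, while a few core subunits are encoded in mitochondrial DNA. Brain endothelium is known for a high content of mitochondria, and microglia shift between respiration and glycolysis with their state.

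The cell type labels and the targeted gene were checked first. Tgfbr2 had 91.1 FPKM among controls, 65.4 FPKM among Tgfbr2-deficient libraries and no call (q = 0.0953 in the authors' deposited table). A gene-level value can include exons that remain after recombination. The cells are labelled endothelial, but the 20 endothelial markers summed to 92.2 FPKM in the controls and 513 FPKM in the Tgfbr2-deficient group, against 13809 and 6315 FPKM for 20 markers of microglia and macrophages. Of the endothelial markers 19 of 20 were called higher, and of the macrophage markers 18 of 20 were called lower. Among all tested genes 23.9% were called higher and 14.7% lower at q under 0.05. Among those at a mean of 50 FPKM or more over both groups, 5.85% were called higher and 40.1% lower. Markers of pericytes and smooth muscle (10 of 13 higher), fibroblasts (13 of 13), erythroid cells (9 of 10), neurons and their progenitors (14 of 15) and striated muscle (11 of 14) were also called higher, with 0 called lower. Of 12 markers of platelets, mast cells and granulocytes 10 were called higher and 1 lower, with a median of 4.09, and Pf4, the one that fell, went from 1877 to 747 FPKM. None of these markers was at 0 in either group. Every result below therefore stands beside a change in cell markers, whose part in it was not tested, and in bulk RNA fewer cells of a type and less RNA per cell cannot be told apart.

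Most oxidative phosphorylation genes were abundant, and most had a somewhat lower FPKM in the Tgfbr2-deficient group, by similar amounts. Of 89 tested members, 85 had a lower FPKM in the Tgfbr2-deficient group, all by less than 1 on the log2 scale, and 4 had a higher one. By the authors' deposited q-values 20 of 89 were called lower, where 14.7% of all 13356 tested genes were, and 1 was called higher, where 23.9% of all tested genes were. At an unadjusted p under 0.05 in the authors' deposited table the counts were 37 lower and 2 higher. The share of all tested genes at that cut was not computed, and their median deposited p was 0.0748, so these counts have no background. At a stricter q under 0.01 the counts were 3 lower and 1 higher, where 7.68% and 20.3% of all tested genes were called, and with a log2 fold of at least 1 beside q under 0.05 they were 0 and 1, where 2.76% and 20.1% were. With no FPKM filter they stayed at 20 and 1 (14.0% and 24.8% of all tested genes), as they did from 5 FPKM upwards (19.5% and 17.2%). The median over members was 119 FPKM in controls and 84.2 FPKM in Tgfbr2-deficient libraries. The median log2 fold on FPKM + 1, the scale of all medians below, was −0.43, with quartiles of −0.52 and −0.28, and the median over all tested genes was −0.08. Adding up all tested members gave 12638 FPKM for the controls and 9351 FPKM for the Tgfbr2-deficient libraries, a ratio of 0.740.

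**Figure D1:**
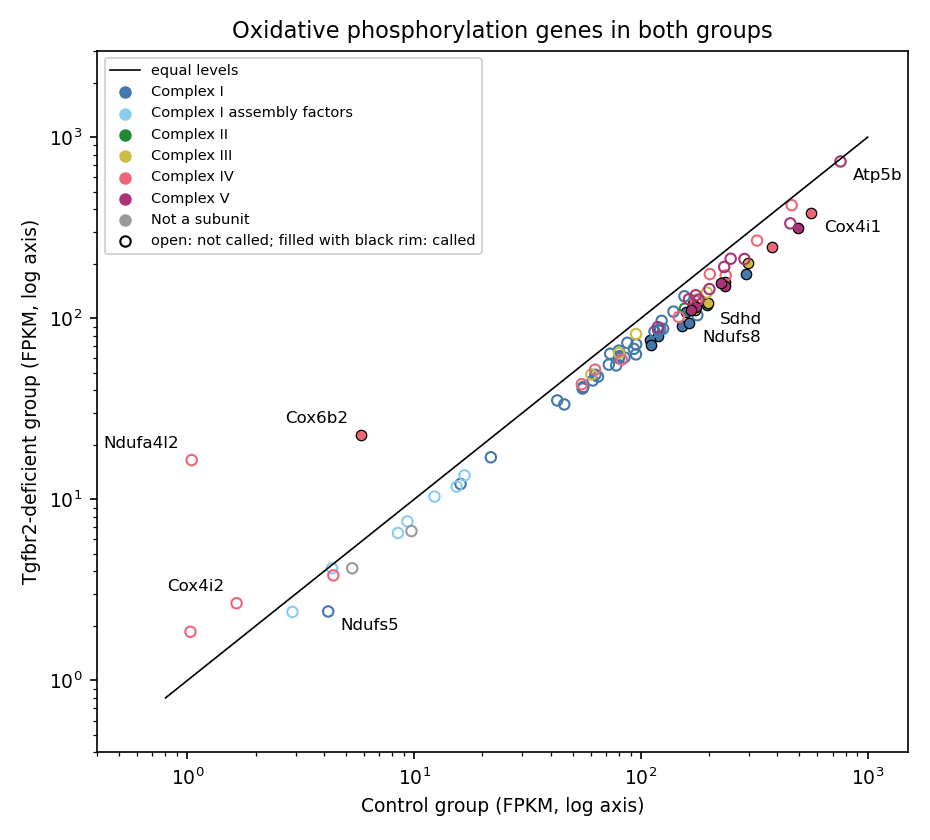
Level of each of the 89 tested genes in the control group (horizontal) and the Tgfbr2-deficient group (vertical), in FPKM on log axes, with 1 value per gene and group; colour gives the complex, filled points with a black rim were called and open points were not. Most points lie just below the line of equal levels, and the 4 points above it, among them Ndufa4l2 and Cox6b2, are at 5.81 FPKM or less in the control group.

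Other genes of similar abundance had a median fold of like size. Restricted to genes with a mean of 50 FPKM or more over both groups, a split chosen after seeing the data, the median log2 fold was −0.47 for 67 members and −0.46 for 1779 tested genes. Of these 67 members, 35 lay below that common median. In the same range 20 of 67 members were called lower, where 40.1% of all tested genes were, and 0 of 67 were called higher by the authors' deposited q-values, where 5.85% were. All 67 had a lower FPKM in the Tgfbr2-deficient group, as did 85.3% of tested genes in that range. The members lay closer together than genes of like abundance did. Their quartiles were 0.20 apart on the log2 scale, where those of all tested genes at 50 FPKM or more were 0.48 apart. Over all levels, quartiles were 0.24 apart for the members, 0.18 for cytoplasmic and 0.25 for mitochondrial ribosomal protein genes. A narrow spread was thus not particular to the members.

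At low levels the members and the other genes had medians of opposite sign. Between 1 and 20 FPKM the median log2 fold was −0.27 over 17 members and 0.09 over 8532 tested genes, of which 29.9% were called higher. Only 1 of the 17 members in that range, Cox6b2, was called. The 17 include the 7 assembly factors of complex I, Atp5s, Atp5sl and 5 complex IV isoforms of restricted tissues. Medians below 0 were also found for other assembly factors (−0.39) and regulators of mitochondrial biogenesis (−0.35), with median control levels of 15.6 and 12.8 FPKM. Between 20 and 50 FPKM the medians were −0.41 over 5 members and −0.34 over 2484 genes. These differences were not tested, since genes are not replicates.

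**Figure D2:**
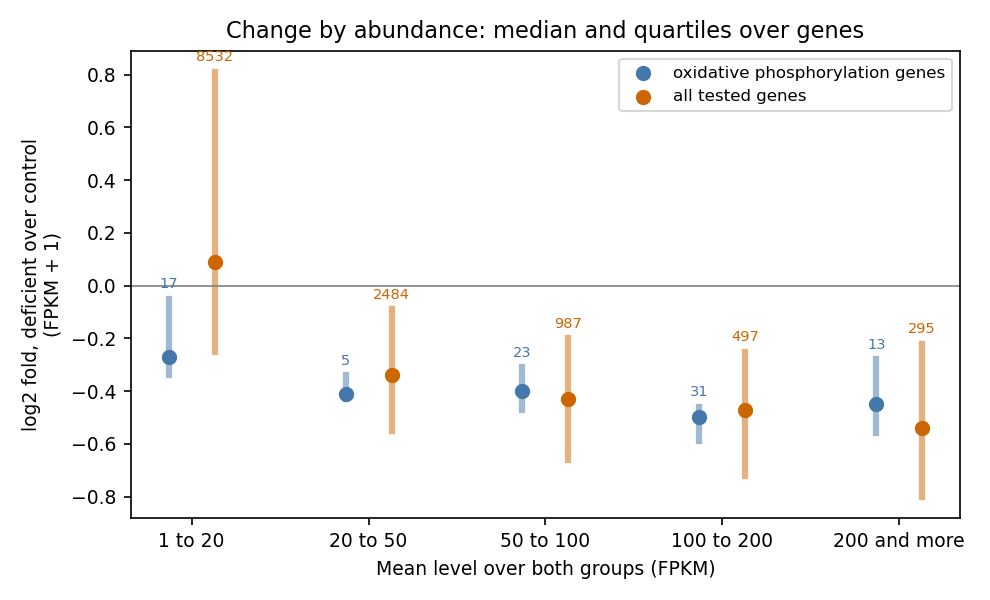
Median (points) and quartiles (bars) of the log2 fold on FPKM + 1, Tgfbr2-deficient over control, by mean level in FPKM, for the oxidative phosphorylation genes and all tested genes; small numbers give the genes in each class. From 50 FPKM upwards the medians of both lie between −0.40 and −0.54 and the bars of the oxidative phosphorylation genes are shorter, while at 1 to 20 FPKM only the median of all tested genes is above 0.

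Because an FPKM value is relative to the other RNA read in a library, the direction depends on the reference. The cytoplasmic ribosomal protein genes, another abundant household set, had a median log2 fold of −0.54 over 76 genes, with 38 called lower and 0 higher. Set to 0 on that median, the members' median log2 fold became 0.11 and 20 of 89 remained below 0. Of these, 17 were among the called members. Set to 0 on the median of all tested genes instead, the members' median was −0.35 and 83 of 89 lay below 0. The mitochondrial ribosomal protein genes, which serve translation of the subunits encoded in mitochondrial DNA, had a median of −0.51 over 76 genes, 34 of them called lower and 0 higher, where 14.7% and 23.9% of all tested genes were. Of the globin entries, 6 have a status for too many fragments and are listed at 0 in the Tgfbr2-deficient column, among them Hbb-y with a control value of 24570 FPKM. Their part in the scaling was not tested.

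**Figure D3:**
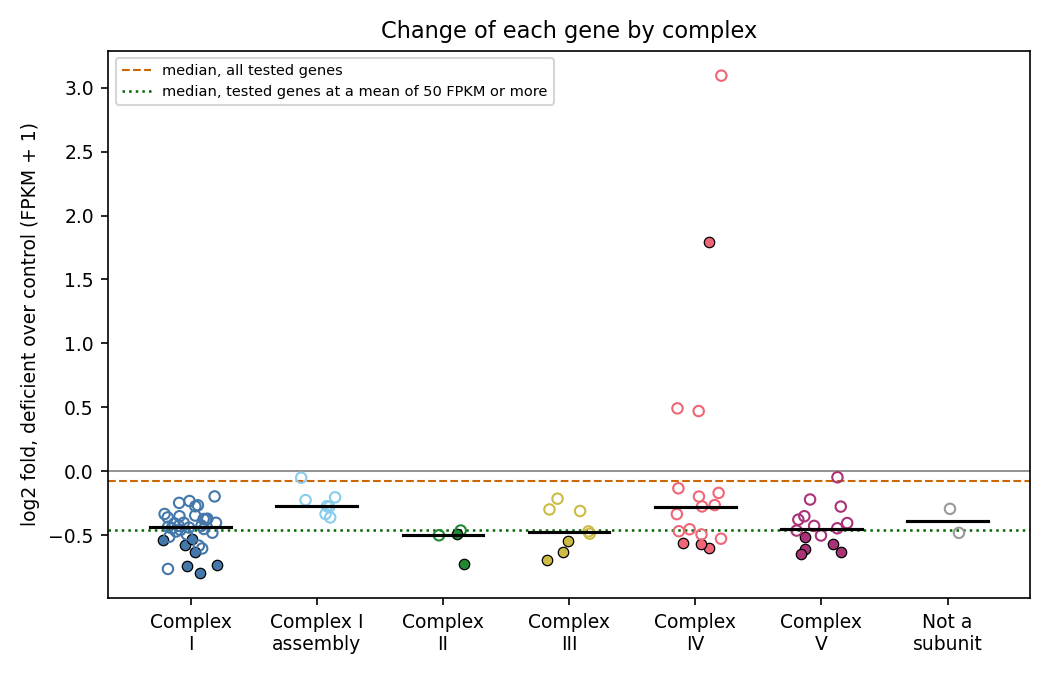
log2 fold on FPKM + 1, Tgfbr2-deficient over control, of each tested gene by complex, with filled points for called genes, open points for genes not called and a black bar at the median of each class; the dashed line is the median of all tested genes (−0.08) and the dotted line that of tested genes at a mean of 50 FPKM or more (−0.46). The medians of complexes I, II, III and V lie between −0.44 and −0.50, that of complex IV at −0.28 with 4 points above 0.

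Promoter sequences of the members were searched for short sites, and no site was found in more than 25.7% of the tested members with a sequence. RefSeq windows (GRCm38.p6) from 250 bases before to 50 after a start site were found for 76 of 92 members, 74 of them tested, and were searched on both strands. The full palindrome of nuclear respiratory factor 1, a regulator of respiratory genes, occurred in 7 of 74 members (9.46%) and in 2.28% of 9819 tested genes with a window. AAGATGGC, the core of YY1 sites, occurred in 11 of 74 (14.9%) and 5.10% of tested genes. CCGGAAG, which ETS factors such as GABP bind, occurred in 17 of 74 (23.0%) and 19.1%. TGCGCA, the core of sites for nuclear respiratory factor 1, which can overlap the palindrome, was in 25.7% and 15.7%. ACGTG, read by hypoxia-inducible and other factors, was in 25.7% and 29.1%, the E-box CACGTG that contains it in 9.46% and 11.6%, and the TATA box TATAAA in 6.76% and 8.77%. Of the 16 called-lower members with a window, the palindrome was in 2, AAGATGGC in 2, CCGGAAG in 5, TGCGCA in 8, ACGTG in 5, CACGTG in 3 and TATAAA in 2. These matches are letters, not measured binding.

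Complex I, the NADH dehydrogenase, had 36 tested subunits, all with a lower FPKM in the Tgfbr2-deficient group. Of these, 7 (19.4%) were called lower and 0 higher by the authors' deposited q-values, where 14.7% and 23.9% of all tested genes were, or 40.1% and 5.85% of those at 50 FPKM or more. The median log2 fold was −0.44 (or 0.10 with ribosomal protein genes as the reference). The sum of their levels went from 3529 to 2503 FPKM. The core subunits carry the flavin and the iron-sulfur clusters along which electrons travel, and 1 of 7 was called. That one was Ndufs8, which holds iron-sulfur clusters near the ubiquinone site and fell from 164 to 93.6 FPKM (log2 fold −0.81, q = 7.9e-04 in the authors' deposited table). Its gene lies on chromosome 19 from 3908863 to 3912774 on the minus strand (GENCODE M21, GRCm38, the assembly of mm10).

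The other core subunits were not called. Ndufv1, which binds NADH and the flavin, stood at 73.2 and 63.7 FPKM in the control and the Tgfbr2-deficient group, and its partner Ndufv2 at 55.7 and 41.7 FPKM. Ndufs1, the large subunit of the electron input module, stood at 42.7 and 35.2 FPKM. Ndufs3, of the module that binds ubiquinone, stood at 80.6 and 61.8 FPKM. The levels of these subunits thus differed although they belong to the same complex.

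Ndufs7, which carries the last iron-sulfur cluster before ubiquinone, showed a wide gap without a call. It stood at 177 and 104 FPKM (log2 fold −0.77), and the authors' deposited table gives it p = 0.605 and q = 0.714. The table gives Ndufs7 and Atp5d, a complex V subunit, the same merged locus on chromosome 10 with 46 entries. At that locus 0 of 37 tested entries were called, the smallest deposited p was 0.0311 and the median 0.744, where the median deposited p over all tested genes was 0.0748. The missing calls of Ndufs7 and Atp5d stand beside that fact, and its part in them was not tested.

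Accessory subunits surround the core of complex I and stabilise it. Of 10 subunits of the Ndufb series, which belong to the membrane arm, 3 were called lower. Among all tested genes 14.7% were called lower, and among those at a mean of 50 FPKM or more 40.1% were. Ndufb8 was the most abundant subunit of complex I and fell from 292 to 175 FPKM (log2 fold −0.73, q = 0.0028 in the authors' deposited table). Ndufb10 fell from 111 to 71.4 FPKM (q = 0.0152) and Ndufb7 from 157 to 108 FPKM (q = 0.0483, both in the authors' deposited table). The 7 members of the series that were not called included Ndufb4 at 95.1 and 63.1 FPKM, which missed the threshold at q = 0.0555, and Ndufb6 at 87.1 and 73.2 FPKM, with the smallest change of the series.

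Of the other 19 accessory subunits, 3 were called lower (15.8%), where 14.7% of all tested genes and 40.1% of those at 50 FPKM or more were. Ndufa2, a thioredoxin-like subunit of the electron input module, fell from 151 to 90.1 FPKM (log2 fold −0.75, q = 0.0149 in the authors' deposited table). Its exons overlap those of Tmco6, which stood at 6.07 and 7.0 FPKM, and reads of both genes cannot be told apart without strand. Ndufa8 fell from 119 to 79.8 FPKM (q = 0.0245) and Ndufa9, at the joint of both arms, from 110 to 75.7 FPKM (q = 0.0338, both in the authors' deposited table). Among those not called, Ndufa3 stood at 156 and 132 FPKM (log2 fold −0.24, q = 0.466 in the authors' deposited table), Ndufab1, the acyl carrier protein that also serves mitochondrial fatty acid synthesis, at 77.8 and 54.9 FPKM, and Ndufa13, also known as GRIM-19, at 64.6 and 47.5 FPKM. Ndufs5 had the lowest level, 4.18 and 2.40 FPKM. It shares its locus with the copy BC002163 at 0.830 and 0.767 FPKM, so the level of Ndufs5 is uncertain.

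The assembly factors of complex I, which build it and leave, were less abundant than most subunits. All 7 had a lower FPKM in the Tgfbr2-deficient group and 0 of 7 were called by the authors' deposited q-values, where 14.7% of tested genes were called lower, and 0 of 7 had an unadjusted p under 0.05. In the authors' deposited table Ndufaf3 had 16.7 and 13.6 FPKM (log2 fold −0.30, q = 0.419), Ndufaf2 15.4 and 11.7 FPKM (−0.39, q = 0.357) and Ndufaf1 12.3 and 10.4 FPKM (−0.25, q = 0.476). Ndufaf7 had 9.34 and 7.55 FPKM (−0.31, q = 0.354) and Ndufaf6 8.48 and 6.51 FPKM (−0.38, q = 0.368). Ndufaf4 had 4.34 and 4.16 FPKM (−0.06, q = 0.874) and Ndufaf5 2.90 and 2.39 FPKM (−0.28, q = 0.520, all in the authors' deposited table). Their median log2 fold was −0.27, or 0.26 with ribosomal protein genes as the reference. Atp5s and Atp5sl, the 2 genes that are no subunits, stood at 5.33 and 4.16 FPKM (log2 fold −0.36, q = 0.399) and at 9.72 and 6.67 FPKM (−0.54, q = 0.0773, both in the authors' deposited table) and were not called.

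Complex II, succinate dehydrogenase, is the only one made wholly from nuclear genes and also works in the tricarboxylic acid cycle. Its 4 genes stood within a narrow band, from 156 to 196 FPKM in the control group and from 113 to 125 FPKM in the Tgfbr2-deficient group. The highest level was 1.26 times the lowest in the control group and 1.11 times in the Tgfbr2-deficient group. This was the narrowest span among the complexes, but a span tends to widen with more genes, and the other complexes have 8 to 36. The membrane anchors Sdhd and Sdhc were called, 2 of 4 genes, where 40.1% of tested genes at 50 FPKM or more were called lower. Sdhd fell from 196 to 118 FPKM (log2 fold −0.73, q = 0.0024 in the authors' deposited table), and Sdhc from 170 to 120 FPKM (log2 fold −0.50, q = 0.0497 in the authors' deposited table). The catalytic subunits were not called but stood at like distances, Sdha, which binds the flavin, at 156 and 113 FPKM (q = 0.10 in the authors' deposited table) and Sdhb, which carries the iron-sulfur clusters, at 177 and 125 FPKM (q = 0.0513 in the authors' deposited table). The log2 folds of Sdhc and Sdhb differ by less than 0.01, and only the former was called. The median was −0.50, or 0.04 with ribosomal protein genes as the reference.

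Complex III passes electrons from ubiquinol to cytochrome c. Of its 8 tested genes 3 (37.5%) were called lower and 0 higher by the authors' deposited q-values, close to the 40.1% called lower among tested genes at 50 FPKM or more, where all 8 lie. The median log2 fold was −0.48 (0.06 with ribosomal protein genes as the reference). Uqcr10, a small subunit, fell from 197 to 122 FPKM (q = 0.0104). Uqcrb, which lies by the ubiquinone site, fell from 172 to 111 FPKM (q = 0.0143). Uqcrc1, a core protein on the matrix side and the most abundant of the complex, fell from 296 to 202 FPKM (q = 0.0489, all in the authors' deposited table). Its partner Uqcrc2 stood much lower, at 60.4 and 48.9 FPKM, and was not called. Uqcrfs1, the Rieske iron-sulfur protein, stood at 80.0 and 64.3 FPKM, the hinge protein Uqcrh at 95.1 and 81.8 FPKM, Uqcrq at 195 and 139 FPKM (log2 fold −0.49, q = 0.0683 in the authors' deposited table) and Uqcr11 at 175 and 126 FPKM. Cyc1, the cytochrome c1 of the same complex, which the symbol rule leaves out, stood at 155 and 123 FPKM and was not called.

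Complex IV, cytochrome c oxidase, differed from the others in holding isoform genes that most tissues hardly use. Ndufa4 and Ndufa4l2 were counted here, since the Ndufa4 protein, named for complex I, is a subunit of complex IV. Of 17 tested genes, 3 (17.6%) were called lower and 1 (5.88%) higher by the authors' deposited q-values, where 14.7% and 23.9% of all tested genes were. The 12 common subunits all had a lower FPKM in the Tgfbr2-deficient group, with a median log2 fold of −0.46, and 3 of them (25%) were called lower. Among tested genes at a mean of 50 FPKM or more, where most of the common subunits lie, 40.1% were called lower. The 5 tested isoforms of restricted tissues had a higher FPKM in 4 of 5 cases, with a median of 0.49. With ribosomal protein genes as the reference the median of all 17 turned from −0.28 to 0.26.

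The called common subunits were Cox4i1, Cox6b1 and Ndufa4. Cox4i1, the subunit 4 through which ATP regulates the enzyme, fell from 565 to 382 FPKM (log2 fold −0.57, q = 0.0326 in the authors' deposited table). Cox6b1, which joins the monomers on the outer face, fell from 377 to 248 FPKM (log2 fold −0.61, q = 0.0162 in the authors' deposited table). Ndufa4 fell from 235 to 158 FPKM (log2 fold −0.57, q = 0.0338 in the authors' deposited table). Cox6a1 stood at 462 and 421 FPKM (log2 fold −0.13, q = 0.643 in the authors' deposited table), with the smallest change among the common subunits. Cox5a and Cox5b, bound to the catalytic core, stood at 236 and 172 FPKM and at 175 and 124 FPKM, Cox8a at 325 and 268 FPKM (log2 fold −0.28, q = 0.310 in the authors' deposited table) and Cox6c at 201 and 175 FPKM. The small subunits Cox7c, Cox7a2 and Cox7b stood at 147 and 101, at 82.3 and 59.1 and at 54.9 and 43.3 FPKM. None of these was called, with q = 0.0814 for Cox7a2 and q = 0.233 for Cox7b in the authors' deposited table.

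**Figure D4:**
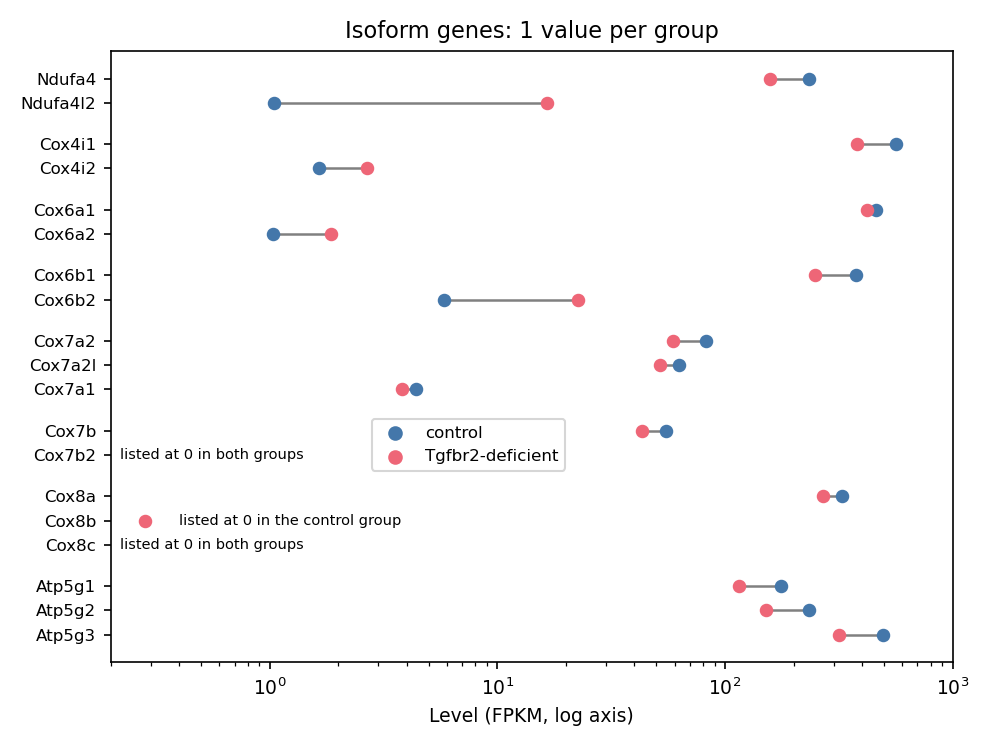
Level in FPKM (log axis) of the genes in each isoform group, in the control group (blue) and the Tgfbr2-deficient group (red), with 1 value per group and no error available. Common forms move to the left from control to Tgfbr2-deficient, while Ndufa4l2, Cox4i2, Cox6a2 and Cox6b2 move to the right from levels of 5.81 FPKM or less.

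Cox6b2, the form of Cox6b1 best known from testis, was the 1 member called higher. It rose from 5.81 to 22.6 FPKM, a log2 fold of 1.96 (q = 2.9e-04 in the authors' deposited table, the smallest value there). Its share of the Cox6b1 and Cox6b2 levels went from 1.52% to 8.37%. The gene lies on chromosome 7 from 4751792 to 4753094 on the minus strand in GENCODE M21 (GRCm38), and its exons overlap those of no other gene there.

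The pair Cox6b1 and Cox6b2 is shown because it was called in opposite directions. Both are on the minus strand. The upstream stretch of Cox6b2 and the stretch of Cox6b1 at chr7:30626142-30626364, trimmed the same way, hold none of the letters searched in full, which says only that they are not in these stretches. The ETS letters of Cox6b1, as CTTCCGG, lie 28 bases before the start of its RefSeq transcript and inside the GENCODE bounds of the gene, which end at 30626151.
Cox6b1, site near the start, chr7:30626124-30626153: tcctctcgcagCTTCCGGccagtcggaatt
Cox6b2, chr7:4753095-4753225: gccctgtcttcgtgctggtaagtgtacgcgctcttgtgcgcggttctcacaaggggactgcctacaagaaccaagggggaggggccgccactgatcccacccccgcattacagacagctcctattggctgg

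Ndufa4l2, a form of Ndufa4 that hypoxia-inducible factor 1 induces and that brain pericytes express, had the largest fold of all members and was not called. Its level was 1.04 FPKM in controls and 16.5 FPKM in the Tgfbr2-deficient group (log2 fold 3.98, p = 0.0485, q = 0.104 in the authors' deposited table). On FPKM + 1 the log2 fold was 3.10, and its share of the Ndufa4 and Ndufa4l2 levels was 0.442% and 9.43%. Its exons overlap those of Shmt2, which fell from 85.2 to 55.1 FPKM (q = 0.0215 in the authors' deposited table), and the libraries do not mark strand. Beside it, 8 of 12 genes of the hypoxia response were called higher and 0 lower, where 23.9% and 14.7% of all tested genes were. Among those called were Adm from 0.353 to 27.3 FPKM and Egln3 from 0.523 to 10.2 FPKM, and the list median was 1.67. The 4 not called included Ldha at 758 and 853 FPKM and Pgk1 at 185 and 200 FPKM. The others were Pdk1 at 17.2 and 15.2 FPKM and Car9 at 3.29 and 2.43 FPKM. The pericyte and smooth muscle markers had a median of 2.0. The part of either in the level of Ndufa4l2 was not tested.

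Cox4i2, the subunit 4 form of lung and of cells that sense oxygen, stood at 1.65 and 2.67 FPKM (log2 fold 0.70, q = 0.278 in the authors' deposited table) and was not called. Its share of the subunit 4 levels was 0.291% and 0.694%. The forms of heart and skeletal muscle stood at similar low levels. Cox6a2 was at 1.03 and 1.85 FPKM (log2 fold 0.85, q = 0.310) and Cox7a1 at 4.4 and 3.80 FPKM (−0.21, q = 0.799, both in the authors' deposited table), and neither was called. The exons of Cox6a2 overlap those of Itgad, and the libraries do not mark strand, so its level is uncertain. Cox8b was listed at 0 for controls and at 0.283 FPKM for the Tgfbr2-deficient group, without a test. In the same groups 11 of 14 tested markers of striated muscle were called higher, with a median of 1.57, and its part in these levels was not tested. Cox7a2l, which helps complexes III and IV join, stood at 62.8 and 52.0 FPKM (log2 fold −0.27, q = 0.349 in the authors' deposited table) and was not called. Cox7b2 and Cox8c, known from testis, were listed at 0 in both groups, and with Cox8b they make up the 3 untested members.

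Complex V, the ATP synthase, had the highest summed level of the complexes, 4115 FPKM in controls and 3158 FPKM in Tgfbr2-deficient libraries. Of its 15 tested genes 5 (33.3%) were called lower and 0 higher by the authors' deposited q-values. All 15 lie at 50 FPKM or more, where 40.1% of tested genes were called lower and 5.85% higher. The median log2 fold was −0.45 (0.09 with ribosomal protein genes as the reference). The genes of the catalytic F1 head were not called, 0 of 5. Atp5b, the catalytic β subunit and the most abundant member, stood at 759 and 734 FPKM, a log2 fold of −0.05 (q = 0.917 in the authors' deposited table), the smallest change of any member. Its partner in the hexamer, Atp5a1, stood at 456 and 334 FPKM (log2 fold −0.45, q = 0.188 in the authors' deposited table). Atp5c1, the turning γ shaft, stood at 200.4 and 145 FPKM, Atp5d at 286 and 212 FPKM and Atp5e at 174 and 134 FPKM.

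The 3 genes for subunit c were all called lower and by nearly the same amount. They lie at a mean of 50 FPKM or more, where 40.1% of tested genes were called lower. Subunit c forms the ring in the membrane that protons turn, and Atp5g1, Atp5g2 and Atp5g3 encode the same mature protein behind different import sequences. Atp5g1 fell from 176 to 115 FPKM (log2 fold −0.61, q = 0.0122). Atp5g2 fell from 234 to 151 FPKM (log2 fold −0.63, q = 0.0133). Atp5g3 fell from 495 to 316 FPKM (log2 fold −0.65, q = 0.0117, all in the authors' deposited table). Of the summed subunit c levels, Atp5g1 made up 19.4% and 19.7%, Atp5g2 25.9% in both groups and Atp5g3 54.7% and 54.3%. Since the mature protein is the same, reads may be split among the genes, and the nucleotide identity between them was not computed, so their separate levels are uncertain.

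The upstream sequences of the 3 subunit c genes are shown because one mature protein comes from 3 separate promoters whose genes fell by like amounts. They are trimmed to stretches with at most 10 bases of GENCODE exon and read 5′ to 3′ on the minus strand of each gene. Matches to the searched letters are in capitals, except that in the Atp5g2 site near the start only the palindrome is. A match to TGCGCA overlaps that palindrome and ends beyond the capitals.
Atp5g1, chr11:96075661-96075881: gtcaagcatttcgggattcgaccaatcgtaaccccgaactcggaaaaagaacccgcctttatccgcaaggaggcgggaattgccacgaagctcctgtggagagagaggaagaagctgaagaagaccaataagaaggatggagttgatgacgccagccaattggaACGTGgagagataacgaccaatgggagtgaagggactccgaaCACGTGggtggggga
Atp5g2, chr15:102671118-102671297: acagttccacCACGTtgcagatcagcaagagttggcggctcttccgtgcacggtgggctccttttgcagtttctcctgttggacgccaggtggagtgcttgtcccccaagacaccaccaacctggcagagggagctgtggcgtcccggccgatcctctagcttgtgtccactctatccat
Atp5g2, site near the start, chr15:102671070-102671099: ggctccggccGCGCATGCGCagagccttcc
Atp5g3, chr2:73911327-73911576: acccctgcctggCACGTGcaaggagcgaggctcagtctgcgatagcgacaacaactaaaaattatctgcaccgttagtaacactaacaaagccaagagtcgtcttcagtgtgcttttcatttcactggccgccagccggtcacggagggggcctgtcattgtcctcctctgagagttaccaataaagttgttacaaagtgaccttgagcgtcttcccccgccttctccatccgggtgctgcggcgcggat
Atp5g1 and Atp5g3 hold the E-box, 44 and 238 bases before the start, and Atp5g2 holds the full palindrome of nuclear respiratory factor 1, the capitals of its site, 42 bases before the start of its RefSeq transcript. The first stretch of Atp5g2 lies inside the GENCODE bounds of that gene.

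The other called genes of complex V were Atp5l, subunit g of the membrane part, which fell from 166 to 111 FPKM (q = 0.0307), and Atp5o, which joins the stalk to the head and fell from 226 to 157 FPKM (q = 0.0396, both in the authors' deposited table). The remaining stalk genes were not called. Atp5f1 stood at 163 and 127 FPKM, Atp5h at 249 and 213 FPKM and Atp5j at 180 and 127 FPKM. The same held for Atp5j2 at 233 and 192 FPKM and Atp5k at 119 and 89.3 FPKM in the membrane part.

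The 5 complexes kept similar shares of the summed subunit levels. Complex V held 32.8% in controls and 34.0% in the Tgfbr2-deficient group, complex I 28.1% and 27.0%, complex IV 23.4% and 24.3%, complex III 10.1% and 9.63% and complex II 5.58% and 5.13%. Of the 10 most abundant members in the control group, 9 were among the 10 most abundant in the Tgfbr2-deficient group. The 3 members on the X chromosome, Ndufa1, Ndufb11 and Cox7b, were not called and had a median log2 fold of −0.36.

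Other mitochondrial genes, listed by function, mostly had medians below 0 as well, which turn above 0 with ribosomal protein genes as the reference. Counts are of calls by the authors' deposited q-values, with 14.7% of all tested genes called lower and 23.9% called higher. Of 38 assembly factors outside the symbol rule, 7 were called lower and 0 higher, with a median of −0.39. The largest falls among called genes on the log2 scale were of Coa4, a factor of complex IV, from 21 to 8.92 FPKM and Cox14 from 91.7 to 54.2 FPKM. Of 5 further genes of the pathway, among them the ATP synthase inhibitor Atpif1 at 328 and 239 FPKM and the small synthase subunit Usmg5 at 199 and 141 FPKM, 0 were called at q under 0.05, and the median was −0.45. The 13 genes of mitochondrial DNA were not analysed here.

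Of 19 genes of the tricarboxylic acid cycle and pyruvate entry, 3 were called lower and 1 higher, with a median of −0.26. Idh2, which makes NADPH in the matrix, fell from 336 to 189 FPKM, and Fh1, the fumarase, from 81.4 to 51.8 FPKM. Pcx, which makes oxaloacetate from pyruvate, rose from 4.21 to 8.59 FPKM. Of 10 genes of fatty acid oxidation 4 were called lower and 0 higher, with a median of −0.38. Etfb, which carries electrons from that pathway towards ubiquinone, fell from 194 to 106 FPKM and Cpt1a, which admits fatty acids, from 34.8 to 22.6 FPKM.

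Of 14 carriers and porins 4 were called lower and 0 higher, with a median of −0.35, among them Slc25a10, the dicarboxylate carrier, from 34.3 to 17.5 FPKM and Slc25a5, an exchanger of ADP for ATP, from 480 to 293 FPKM. Of 23 genes of protein import and mitochondrial shape 6 were called lower and 0 higher, with a median of −0.35. Tomm5, of the import pore, fell from 63.7 to 39.6 FPKM and Hspe1, a chaperonin, from 98.4 to 62.6 FPKM. Of 14 tested regulators of mitochondrial biogenesis 0 were called in either direction, with a median of −0.35. The most abundant were Ssbp1 at 26.2 and 18.3 FPKM and Polg at 25.8 and 18.9 FPKM.

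The genes of oxidant defence had a median near 0. Of 10, 1 was called lower and 1 higher, with a median of −0.07. Txn2, the thioredoxin of mitochondria, fell from 153 to 95.3 FPKM, and Cat, the catalase of peroxisomes that is also abundant in red blood cells, rose from 76.1 to 157 FPKM. The erythroid markers summed to 379 and 2381 FPKM in the same groups, and their part in the level of Cat was not tested.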

How the data were processed

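RNA of sorted mouse cells was sequenced in 3 control and 4 Tgfbr2-deficient libraries. Per the labels and the series' design text, cDNA was made with SMART-Seq v4 for poly(A) libraries built with Nextera XT, which do not mark strand, and read as single ends of 50 bases. Per the submitters' processing notes the build was mm10 and the tools TopHat2, Cufflinks 2.2.1 and Cuffdiff. The sources used here name no annotation, normalization or test settings. The deposited FPKM values are 1 per group and gene, per the file headers. The deposited log2 fold is Tgfbr2-deficient over control with no pseudocount and matched the log2 ratio of both FPKM values to within 3.6e-05. The deposited p-value and q-value are those of the authors' Cuffdiff test, and the deposited test statistic, a score, was not used. There were 0 columns of single libraries.

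Calls took test status OK, at least 1 FPKM in at least 1 group and a deposited q-value under 0.05. Medians are of log2 with 1 FPKM added, which pulls low genes towards 0. With no values per library, no test, interval or floor was computed. Members of a list are not replicates, so lists are given as counts and medians. The members and lists were chosen with earlier results of these data known. Any member may be named. Given in full are, for each complex, the 3 members of highest mean FPKM, up to 3 called members with the largest rise and 3 with the largest fall, isoform groups and members that are no subunits, and for each other pathway list up to 2 called genes per direction with the largest change, or the 2 most abundant where none was called. Cyc1, Tmco6, Shmt2 and BC002163 were named after their values were seen. The roles within a complex and the abundance classes were also chosen after seeing the data. Promoters were found by symbol or RefSeq synonym (3 members), and counting was tested on simulated data. Alternatives varied the FPKM filter, the q threshold, the fold, the q adjustment, the pseudocount, the centring and the members counted. Python 3.11.15 and pandas 2.3.3 were used.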

Additional observations from a re-analysis of the deposited data

How the results depend on the processing

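The direction of the members turned with ribosomal protein genes as the reference, which themselves had a median log2 fold of −0.54. Centred on all tested genes it did not turn, with a members' median of −0.35 and 83 of 89 below 0. Centred on ribosomal protein genes, which adds 0.54 to each log2 fold, the median turned to 0.11 for all members, 0.10 for complex I, 0.04 for complex II, 0.06 for complex III, 0.26 for complex IV, 0.09 for complex V, 0.26 for the assembly factors of complex I and 0.15 for the 2 genes that are no subunits. In the other lists it turned to 0.08 for the 5 further pathway genes, 0.15 for other assembly factors, 0.28 for the tricarboxylic acid cycle, 0.19 for biogenesis regulators, 0.18 for import and shape, 0.18 for carriers and porins, 0.16 for fatty acid oxidation and 0.46 for oxidant defence. Centred on all tested genes, oxidant defence turned to 0.01, complex II moved to −0.42 and the assembly factors of complex I to −0.19. The count of members called lower was 20 and became 3 at q under 0.01 and 0 when a log2 fold of 1 or more was also asked for, a condition that no member called lower meets. Over all tested genes the lower calls became 1026 and 368 under these settings. The higher calls over all tested genes became 1643 at 5 FPKM or more. At a mean of 50 FPKM or more, chosen after seeing the data, the calls over all tested genes were 713 lower and 104 higher, and 0 members were called higher because Cox6b2 lies below that level. Exons of another gene overlap those of 32 members, and without these, also chosen after seeing the data, 12 of 57 tested members were called lower and the median was −0.45. The count of 12 is over fewer genes. The other alternatives left the members' counts within 1.5 times and their median within its spread over genes. No paired analysis was possible because the table holds no values per library, and for the same reason no library could be left out. Depth per library is unknown.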
